A study of Mus musculus with 12 samples.

Results

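The genes described here carry cargo along the cilium or form the gate at its base. They were listed by symbol and known complex, with earlier results of these data known, and all 53 were found among the 24279 genes of the deposited tables. The list holds 6 genes of the IFT-A complex, 16 of the IFT-B complex, 3 of the motors, 10 of the BBSome with its chaperones, 13 of the transition zone, and 5 of the basal body and the ciliary GTPases. All 53 passed the low-count filter that left 15186 genes to test. Polyadenylated RNA was sequenced from primary fibroblasts of mouse embryos at embryonic day 12.5. Fortified cells came from F3 mice fed 10 ppm folic acid and grew in DMEM with 3600 ng/mL of it. Moderate cells came from F3 mice fed 2 ppm and grew in 225 ng/mL. Mutant cells carried the genotype Rsg1L3P/L3P, and the others were labelled wild type. There were 3 libraries each of fortified mutant, fortified wild type, moderate mutant and moderate wild type cells. Diet and medium changed together and cannot be told apart. Whether different embryos gave the libraries of 1 group is not stated in the labels. The p-values thus measure the spread between libraries, which may be technical. In each wild type group marks of sex, given below, differed between libraries, so those were not all from 1 embryo. For the mutant groups this stays unknown. The labels also leave out what the L3P allele changes in Rsg1, a small GTPase of the CPLANE complex that takes part in ciliogenesis.

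Cilia are built by intraflagellar transport, in which trains of IFT-B and IFT-A subunits move along the microtubule axoneme. Kinesin-2 drives the trains outward and the dynein-2 motor drives them back, while the BBSome rides with them and carries membrane proteins. The transition zone at the ciliary base is a gate that decides which proteins enter, and fibroblasts use the resulting primary cilium for Hedgehog signalling. RFX transcription factors are known to bind the X-box in promoters of many of these genes.

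Depth ran from 39339190 to 48475963 expected counts per library. On the first principal component (30.2% of variance) fortified mutant 2, fortified mutant 3 and moderate wild type 1 lay at the high end (48.1, 57.5 and 68), and moderate wild type 2 and 3 as far at the low end (-68.6 and -53.7). The 3 high libraries were left out together and every library singly, and values are given where a result changed. Xist was present in 6 of 6 mutant and in 2 of 6 wild type libraries. Y-linked counts were 7061 and 10512 in moderate wild type 2 and 3 and 11000 in fortified wild type 3, and 0 in every other library. Fortified wild type 2 had neither mark of sex. Sex and genotype are thus mixed in the mutant against wild type comparisons and cannot be fully told apart. Rsg1 lay between 0.669 and 0.866 CPM in fortified mutant cells, 0.725 and 1.03 CPM in fortified wild type cells, 0.80 and 1.12 CPM in moderate mutant cells, and 0.489 and 0.964 CPM in moderate wild type cells. CPM are expected counts per 1000000 after TMM scaling. All 12 fibroblast markers were detected in every library, with Vim at 2520 to 4890 TPM and Col1a1 at 540 to 6070 TPM. Markers of motile cilia, in contrast, were low: Tmem212 was at 0 in every library, and Foxj1, the regulator of motile ciliogenesis, reached at most 2.11 TPM. In bulk RNA, fewer cells of a type and less RNA per cell cannot be told apart.

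The promoters of these genes were searched for the RFX half-site. An entry in the RefSeq table (GRCm38.p6, 250 bases before to 50 after the start) was found for 48 of the 53 genes; Ift122, Ift80, Ift81, Tmem67 and Ttc30b had none. The RFX half-site GTTGCC, searched on both strands, stood in the promoters of 23 of 48 members (47.9%), against 14.6% of 11371 tested genes with an entry and 12.5% of all 32851 promoters. With any base at the fourth place (GTTNCC, which includes GTTGCC) it stood in 39 members (81.2%) and in 51.1% of tested genes. A pair of inverted half-sites separated by 0 to 3 bases, the arrangement of an X-box, stood in 6 members (12.5%) and in 0.967% of tested genes. These letters are a description and show no binding. Windows in Bbs7, Mks1, Tctn1, Tctn3 and Ttc26 are printed as examples of these matches. The paired half-sites are in capitals, with up to 10 flanking bases. The pairs were searched as GTTNCC and the inverted GGNAAC, so capitals other than those at N are alike because the search fixed them.
Bbs7: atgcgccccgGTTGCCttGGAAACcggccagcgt
Mks1: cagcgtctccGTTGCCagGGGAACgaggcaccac
Tctn1: ggctgtgactGTTGCCcgGGCAAC
Tctn3: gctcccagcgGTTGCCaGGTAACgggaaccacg
Ttc26: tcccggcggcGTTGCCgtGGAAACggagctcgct
The Bbs7 window lies at chr3:36613487-36613520 on the minus strand and Mks1 at chr11:87853181-87853214 on the plus strand. Tctn1 lies at chr5:122264411-122264434 on the minus strand, Tctn3 at chr19:40612349-40612381 on the minus strand and Ttc26 at chr6:38381481-38381514 on the plus strand. The gap was 1 base in Tctn3 and 2 bases in the other 4. None of the 6 genes with a paired site passed the edgeR test of all 12 libraries in any comparison below. Limma-voom called Bbs7, Mks1, Tctn1 and Tctn3 between folic acid levels in mutant cells, and Ttc26 passed in the folic acid average without moderate wild type 3.

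Levels, given as TPM and so per length, spanned a wide range within each module. In IFT-B the median member had 19.5 TPM, from 3.62 for Ttc30b to 83.7 for Ift20, which also works at the Golgi. In IFT-A the median was 10.1 TPM, from 6.40 for Wdr19 to 61.1 for Ift43. Among the motors the kinesin-2 subunit Kif3a had 20.1 TPM, and Dync2h1, the heavy chain of dynein-2, had 3.25 TPM. The BBSome genes lay lower, with a median of 5.78 TPM, from 1.83 for the chaperonin-like Bbs10 to 17.4 for Arl6, the GTPase that recruits the BBSome to membranes. Transition zone genes had a median of 6.91 TPM, from 2.57 for Nphp4 to 35.1 for B9d1. Of the basal body and GTPase genes, Ttbk2, the kinase that licenses ciliogenesis, was lowest at 6.42 TPM and Arl3, which releases lipidated cargo inside the cilium, highest at 93.2 TPM. Every gene but Bbs1, which fell to 0.934 TPM in 1 library, stayed over 1 TPM in all 12 libraries. The lowest expected count of any member in any library was 88. Ttc30b has near-identical copies, Ttc30a1 at 4.02 TPM and Ttc30a2 at 0.238 TPM, between which reads can be split, so its values are uncertain.

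**Figure D1:**
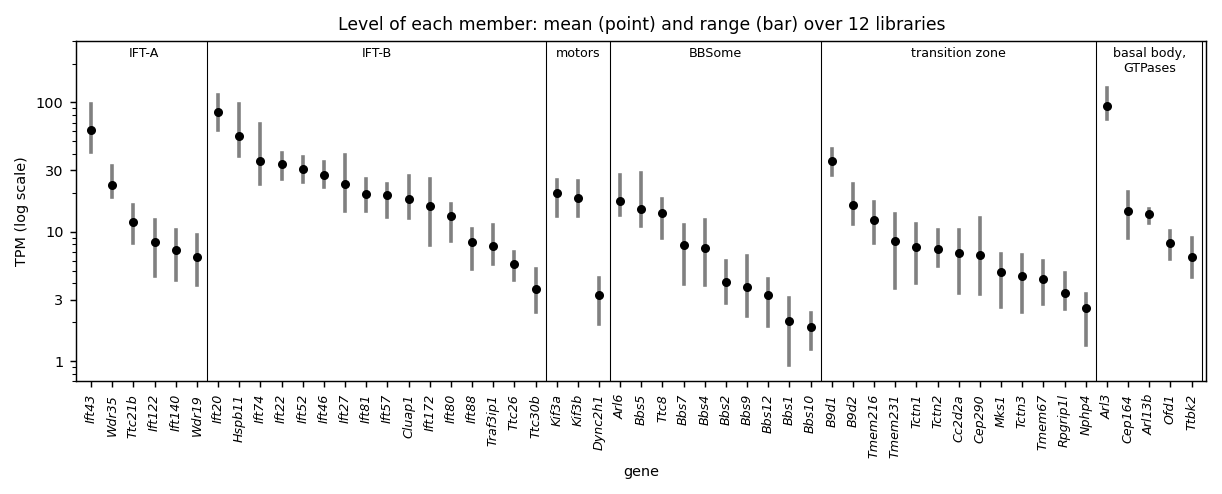
Level of each of the 53 members in TPM (log axis), grouped by module and ordered by mean; points are means and bars the range over the 12 libraries. Arl3 (93.2 TPM) and Ift20 (83.7 TPM) are at the top and Bbs10 (1.83 TPM) at the bottom.

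The first question was what mutant cells did with these genes relative to wild type cells at the same folic acid level. No member passed the test in either diet. At fortified folic acid edgeR called 0 of 53 members (0% of all tested genes were called), 0 had an unadjusted p under 0.05 (3.29% of all genes), and DESeq2 called 0 members (0.0395%). At moderate folic acid edgeR again called 0 members (0%), 0 had an unadjusted p under 0.05 (7.87%), and DESeq2 called 0 (0.329%). The median log2 fold change of mutant over wild type was -0.08 over the members at fortified folic acid (0.01 over all genes) and -0.09 at moderate folic acid (-0.05 over all genes). Single members lay between -0.42 and 0.43 at fortified and between -0.41 and 0.45 at moderate folic acid.

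The modules differed little in these medians. At fortified folic acid the median was -0.22 for IFT-A, -0.02 for IFT-B, -0.003 for the motors, -0.02 for the BBSome, -0.10 for the transition zone and 0.06 for the basal body and GTPases. At moderate folic acid it was -0.03 for IFT-A, -0.16 for IFT-B, 0.002 for the motors, -0.18 for the BBSome, -0.04 for the transition zone and 0.006 for the basal body and GTPases. The groups did not overlap for 2 members at fortified folic acid, against 10.3% of all genes, and for 2 members at moderate folic acid, against 13% of all genes.

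At fortified folic acid the smallest p values belonged to Ttc21b, Cep164, Ofd1 and Tmem216. Ttc21b, an IFT-A subunit, had 32.2, 20.9 and 20.9 CPM in fortified mutant cells and 34.99, 30.5 and 27.8 CPM in fortified wild type cells (log2 fold change -0.34, 95% interval -0.77 to 0.09, edgeR adjusted p = 0.939). Tmem216, a membrane protein of the transition zone, had 6.71, 6.93 and 7.06 CPM in fortified mutant cells and 4.28, 5.35 and 5.78 CPM in fortified wild type cells. All fortified mutant libraries were the higher ones for Tmem216, but the interval of its log2 fold change of 0.43 ran from -0.21 to 1.06 (edgeR adjusted p = 0.939). Kif3b was the other gene without overlap, with 41.8, 44.4 and 43.4 CPM in fortified mutant cells and 48.5, 48.2 and 45.9 CPM in fortified wild type cells. Its log2 fold change was -0.14 (interval -0.43 to 0.15). Cep164, a protein of the distal appendages by which the basal body docks, had 44.4, 28.2 and 33.9 CPM in fortified mutant cells. In fortified wild type cells it had 54.5, 39.8 and 45.4 CPM, so the ranges overlap. Ofd1, a gene of the X chromosome whose product sits at the end of the centriole, had 18.01, 15.8 and 15.2 CPM in fortified mutant cells. In fortified wild type cells Ofd1 had 19.98, 20.3 and 16.9 CPM.

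At moderate folic acid the smallest p values belonged to Wdr35, Ift172, Ift22 and B9d1. Ift172, known from Chlamydomonas for its part in the turnaround of trains at the ciliary tip, had 55.7, 59.5 and 51.6 CPM in moderate mutant cells and 32.5, 42.0 and 47.3 CPM in moderate wild type cells. All moderate mutant libraries were higher, with a log2 fold change of 0.45 (interval -0.07 to 0.98, edgeR adjusted p = 0.669). Ift140, a core IFT-A subunit, also did not overlap, with 21.3, 19.2 and 17.8 CPM in moderate mutant cells and 17.7, 16.8 and 14.2 CPM in moderate wild type cells (log2 fold change 0.26, interval -0.23 to 0.75). Wdr35, another IFT-A subunit, had 51.2, 48.3 and 40.4 CPM in moderate mutant cells and 62.3, 49.7 and 56.1 CPM in moderate wild type cells. The Rab-like Ift22 had 10.0, 11.0 and 8.96 CPM in moderate mutant cells and 11.0, 10.8 and 16.5 CPM in moderate wild type cells. B9d1, a transition zone protein with a B9 domain, had 7.35, 8.34 and 9.03 CPM in moderate mutant cells and 7.96, 8.61 and 15.5 CPM in moderate wild type cells. For Ift22 and B9d1 the high wild type value was that of moderate wild type 3 alone.

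Averaged over both folic acid levels, edgeR called 0 members between mutant and wild type cells (0% of all genes), 1 member had an unadjusted p under 0.05 (4.64% of all genes), and DESeq2 called 0 (0.119%). That member was Ttc21b, with a log2 fold change of -0.31 (interval -0.62 to -0.01, edgeR adjusted p = 0.986). It averaged 24.6 ± 6.53 CPM in fortified mutant cells and 31.1 ± 3.62 CPM in fortified wild type cells, and 22.7 ± 0.634 CPM in moderate mutant cells and 27.7 ± 4.2 CPM in moderate wild type cells (SD, n = 3 each). The next by p were the BBSome subunit Bbs7 (-0.33), Traf3ip1 (-0.18), an IFT-B subunit, and Wdr35 (-0.12), each with an edgeR adjusted p of 0.986. Bbs7 measured 11.2, 5.76 and 6.63 CPM in fortified mutant cells, 12.2, 8.39 and 11.1 CPM in fortified wild type cells, 9.78, 9.66 and 9.51 CPM in moderate mutant cells, and 7.70, 13.4 and 13.2 CPM in moderate wild type cells. Traf3ip1 lay between 10.82 and 11.73 CPM in fortified mutant cells, 11.4 and 14.5 CPM in fortified wild type cells, 13.2 and 13.8 CPM in moderate mutant cells, and 13.8 and 17.5 CPM in moderate wild type cells.

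**Figure D2:**
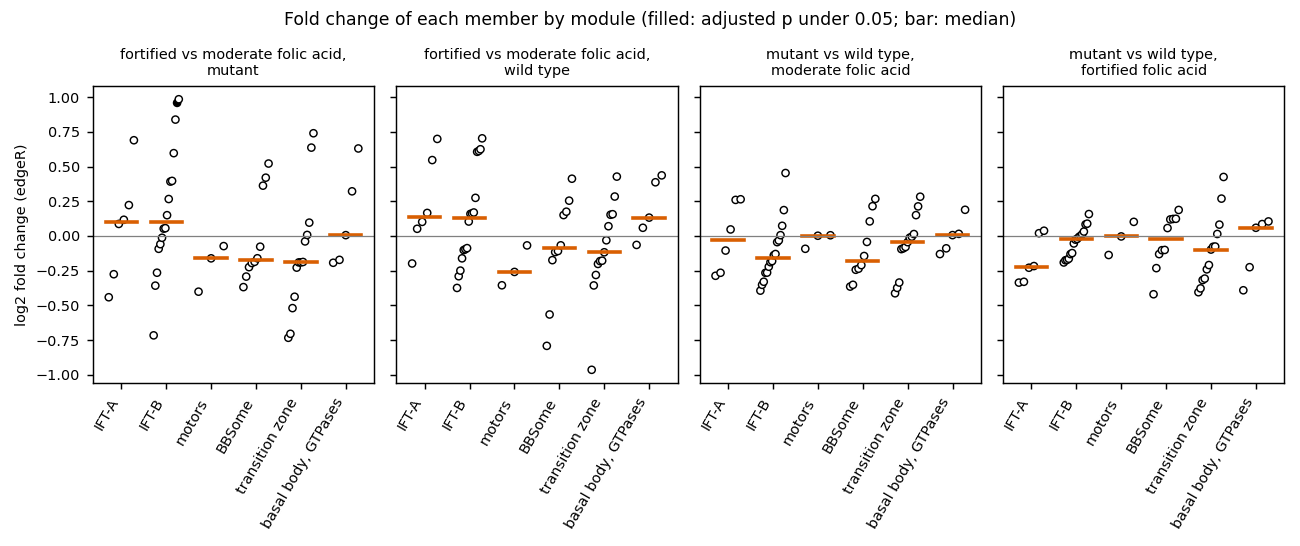
Log2 fold change (edgeR) of each member in 4 comparisons, by module; circles are genes, filled where the adjusted p over all genes is under 0.05, and bars are module medians. Ift20 in mutant cells (0.96) is the filled circle, and the motor circles lie below 0 in both folic acid panels, which does not hold for Kif3a in mutant cells (0.02) and for Dync2h1 once the length trend is removed.

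The second question was what fortified against moderate folic acid did. Averaged over both genotypes, 7 of 53 members passed the edgeR test, 5 higher and 2 lower in fortified cells. Ift20, Ift27 and Hspb11 of IFT-B, Ift43 of IFT-A and the GTPase Arl3 rose, with log2 fold changes of 0.53 to 0.80, and Cep290 of the transition zone and the motor subunit Kif3b fell. The 7 called members were 13.2% of the list, and 17.8% of all tested genes were called (8.9% higher and 8.86% lower), so the share among members was not above the background. DESeq2 called 12 members (26% of all genes), and 14 had an unadjusted p under 0.05 in edgeR (33.9% of all genes). The median log2 fold change was -0.03 over the members and 0.0004 over all genes.

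The IFT-B members that rose were small subunits. Ift20 had 40.1, 40.4 and 29.6 CPM in fortified mutant cells, 26.9, 36.0 and 40.6 CPM in fortified wild type cells, 20.1, 17.4 and 19.1 CPM in moderate mutant cells, and 17.9, 19.5 and 30.5 CPM in moderate wild type cells. Only moderate wild type 3 reached the fortified range. The log2 fold change of Ift20 was 0.78 (SE 0.16, edgeR adjusted p = 0.0109), and it was the member with the smallest p. Ift27, a Rab-like GTPase of the train that links it to the BBSome, had 19.0, 9.62 and 8.75 CPM in fortified mutant cells, 13.1, 11.9 and 15.95 CPM in fortified wild type cells, 6.81, 7.78 and 6.28 CPM in moderate mutant cells, and 9.78, 8.20 and 7.11 CPM in moderate wild type cells. Hspb11, the partner of Ift27 in the train, had 21.7, 11.0 and 10.1 CPM in fortified mutant cells, 11.3, 12.1 and 20.03 CPM in fortified wild type cells, 7.18, 6.98 and 7.46 CPM in moderate mutant cells, and 6.99, 9.92 and 11.5 CPM in moderate wild type cells. The log2 fold changes were 0.77 for Ift27 (SE 0.21, edgeR adjusted p = 0.0267) and 0.80 for Hspb11 (SE 0.23, edgeR adjusted p = 0.0364). For both genes the fortified and moderate ranges overlapped, and fortified mutant 1 and fortified wild type 3 held the highest values.

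Ift43 of IFT-A and Arl3 separated fully by folic acid. Ift43 had 35.7, 21.0 and 18.7 CPM in fortified mutant cells, 21.7, 23.0 and 28.7 CPM in fortified wild type cells, 16.7, 16.5 and 13.5 CPM in moderate mutant cells, and 17.7, 17.2 and 15.4 CPM in moderate wild type cells. Arl3 had 48.5, 37.6 and 31.2 CPM in fortified mutant cells, 31.8, 32.9 and 44.4 CPM in fortified wild type cells, 26.2, 24.5 and 25.02 CPM in moderate mutant cells, and 24.4, 27.9 and 28.3 CPM in moderate wild type cells. For both, every one of the 6 fortified libraries lay above every one of the 6 moderate libraries. The log2 fold changes were 0.62 for Ift43 (SE 0.17, edgeR adjusted p = 0.0276) and 0.53 for Arl3 (SE 0.13, edgeR adjusted p = 0.0200).

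Cep290 and Kif3b were lower in fortified cells. Cep290, which bridges the transition zone microtubules to the ciliary membrane, had 15.01, 17.5 and 23.7 CPM in fortified mutant cells, 22.8, 21.9 and 14.6 CPM in fortified wild type cells, 28.6, 29.1 and 34.1 CPM in moderate mutant cells, and 28.6, 28.5 and 58.6 CPM in moderate wild type cells. Every fortified library lay below every moderate one, and moderate wild type 3 was far above the others. The log2 fold change was -0.84 (SE 0.21, edgeR adjusted p = 0.0209), and the call held without moderate wild type 3. In all, 9 members share exon bases with another gene of the table, and the largest shares among them are those of Ttbk2 with Cdan1 on the same strand (3409 bases, 29.9%) and of Tctn1 with Hvcn1 on the opposite strand (1574 bases, 19.0%). Cep290 shares 881 exon bases (7.6% of its exons) with 4930430F08Rik on the opposite strand in GENCODE M21, and whether the counting used strand is not given in the sources used here. Kif3b had 41.8, 44.4 and 43.4 CPM in fortified mutant cells, 48.5, 48.2 and 45.9 CPM in fortified wild type cells, 54.8, 56.8 and 59.6 CPM in moderate mutant cells, and 47.7, 65.9 and 57.1 CPM in moderate wild type cells. Moderate wild type 1 alone overlapped the fortified range, and the log2 fold change was -0.33 (SE 0.09, edgeR adjusted p = 0.0338). Over all 53 members, the 6 fortified and 6 moderate libraries did not overlap for Ift43, Arl3 and Cep290, against 6.37% of all genes.

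**Figure D3:**
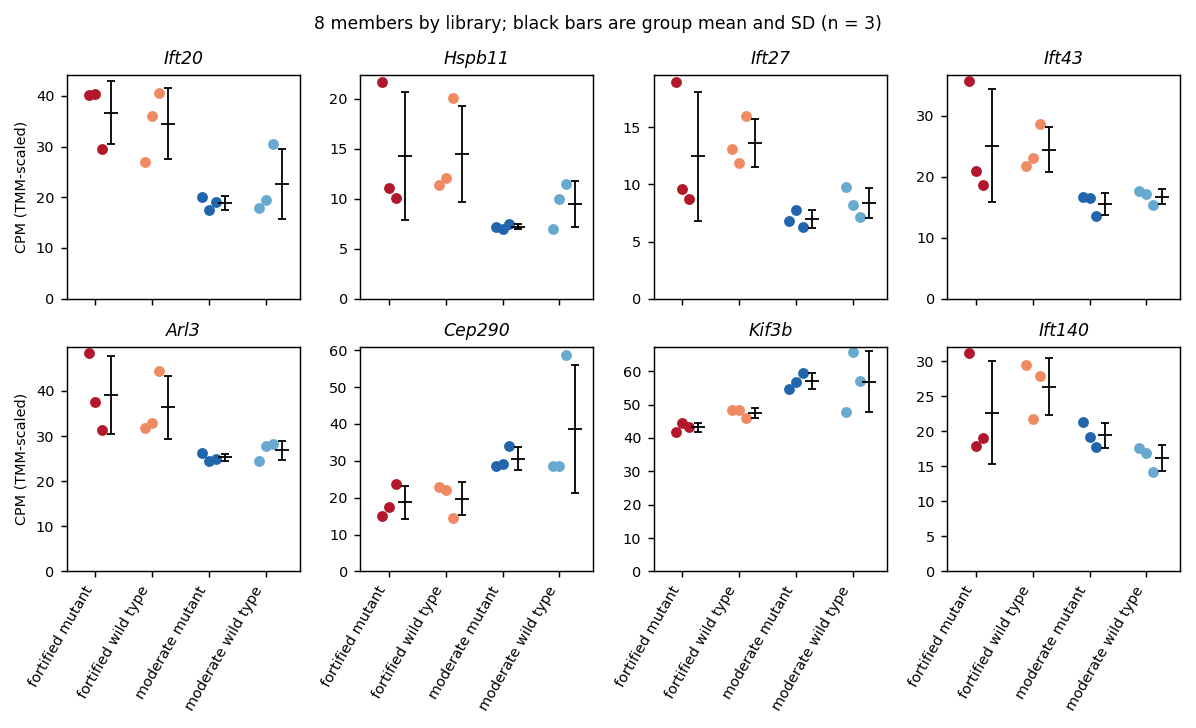
TMM-scaled CPM of the 7 members called between fortified and moderate folic acid and of Ift140, by group; points are libraries, and black bars the group mean and SD (n = 3). Ift43, Arl3 and Cep290 separate by folic acid (Ift43 18.7 to 35.7 CPM fortified, 13.5 to 17.7 CPM moderate), and Cep290 has 1 high library, at 58.6 CPM.

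The promoters of 4 of these genes, 3 that rose and 1 that fell, are printed with each match to GTTNCC or its reverse complement in capitals, to be set beside the paired sites above. Ift20 (gene at chr11:78536361-78541737, plus strand) is shown over chr11:78536111-78536410, and Ift27 (gene at chr15:78159463-78174107, minus strand) over chr15:78174032-78174331. Ift43 (gene at chr12:86082541-86162459, plus strand) is shown over chr12:86082311-86082610, and Cep290 (gene at chr10:100487558-100574840, plus strand) over chr10:100487332-100487631. Gene ends are those of GENCODE M21 on GRCm38, and each sequence runs 5' to 3' on the strand of its gene.
Ift20: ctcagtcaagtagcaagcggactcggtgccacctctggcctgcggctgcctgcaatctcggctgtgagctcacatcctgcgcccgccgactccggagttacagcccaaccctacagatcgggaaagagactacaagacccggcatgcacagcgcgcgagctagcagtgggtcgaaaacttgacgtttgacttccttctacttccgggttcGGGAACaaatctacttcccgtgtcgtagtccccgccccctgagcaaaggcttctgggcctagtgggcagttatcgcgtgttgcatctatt
Ift27: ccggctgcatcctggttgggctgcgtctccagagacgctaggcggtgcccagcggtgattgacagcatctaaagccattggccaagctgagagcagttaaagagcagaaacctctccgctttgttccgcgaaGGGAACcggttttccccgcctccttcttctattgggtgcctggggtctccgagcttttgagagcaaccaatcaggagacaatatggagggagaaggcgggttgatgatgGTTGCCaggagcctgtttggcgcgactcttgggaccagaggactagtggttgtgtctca
Ift43: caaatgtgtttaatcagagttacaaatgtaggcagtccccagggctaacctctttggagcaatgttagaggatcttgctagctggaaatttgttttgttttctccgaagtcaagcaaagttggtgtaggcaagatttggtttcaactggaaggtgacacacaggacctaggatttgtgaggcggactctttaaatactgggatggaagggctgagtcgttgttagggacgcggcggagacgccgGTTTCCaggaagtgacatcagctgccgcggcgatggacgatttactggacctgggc
Cep290: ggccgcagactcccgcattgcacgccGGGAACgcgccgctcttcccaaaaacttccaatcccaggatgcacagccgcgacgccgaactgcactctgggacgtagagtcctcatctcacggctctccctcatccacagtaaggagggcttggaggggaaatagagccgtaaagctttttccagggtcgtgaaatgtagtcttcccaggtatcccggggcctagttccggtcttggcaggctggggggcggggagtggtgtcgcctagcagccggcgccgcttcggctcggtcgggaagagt
Of the 4, Ift27 holds GTTGCC itself. None holds a paired site, and the absence of these letters in a window says nothing about the factor.

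Within each genotype fewer members passed in edgeR than in the average, which is made of the same data. The 7 members called in the average had the same sign in mutant and in wild type cells, while others, such as Tmem216 (0.64 in mutant and -0.20 in wild type cells), did not. In mutant cells, edgeR called Ift20 alone (1 member, 1.89% of the list, against 6.93% of all tested genes), with a log2 fold change of 0.96 (SE 0.23, adjusted p = 0.0372). The call of Ift20 ended when moderate mutant 1, 2 or 3 was left out (edgeR adjusted p = 0.0989, 0.133 and 0.118), as it did when fortified mutant 1 (0.0891), fortified mutant 2 (0.120) or fortified wild type 2 (0.0540) was. The call was also not kept without fortified mutant 2, fortified mutant 3 and moderate wild type 1 together. There fortified mutant 1 alone stood for fortified mutant cells. DESeq2 called 9 members in mutant cells (15.9% of all genes). An unadjusted p under 0.05 was found for 11 members (20.8%, against 25.6% of all genes), and the groups did not overlap for 16 members (30.2%, against 38.2% of all genes), 11 higher (19.6% of all genes) and 5 lower (18.5%) in fortified mutant cells. The other 3 members with the smallest p were Arl3 (log2 fold change 0.63, adjusted p = 0.0625), Kif3b (-0.40, adjusted p = 0.0866) and Hspb11 (0.99, adjusted p = 0.0889).

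In wild type cells edgeR called 0 members (0.0263% of all genes were called), 8 had an unadjusted p under 0.05 (15.1%, against 19.6% of all genes), and DESeq2 called 2, Cep290 and Ift140 (7.88% of all genes). The groups did not overlap for 6 members (11.3%, against 20.6% of all genes): Arl3, Ift140, Ift27 and Ift43 were higher (11% of all genes) and Cep290 and Kif3a lower (9.67%) in fortified wild type cells. The smallest p values belonged to Cep290 (log2 fold change -0.96, interval -1.61 to -0.32, edgeR adjusted p = 0.124), Ift140 (0.70, interval 0.21 to 1.19, 0.134), Bbs4 (-0.79, interval -1.42 to -0.17, 0.165) and Kif3a (-0.36, interval -0.65 to -0.06, 0.178). Ift140 had 29.4, 21.8 and 27.9 CPM in fortified wild type cells and 17.7, 16.8 and 14.2 CPM in moderate wild type cells, without overlap. It had 31.2, 17.9 and 19.0 CPM in fortified mutant cells and 21.3, 19.2 and 17.8 CPM in moderate mutant cells, with overlap. Bbs4, a BBSome subunit that binds centriolar satellites, had 5.87, 5.53 and 9.08 CPM in fortified wild type cells and 9.35, 9.05 and 17.1 CPM in moderate wild type cells. Kif3a had 49.3, 41.8 and 52.8 CPM in fortified wild type cells and 60.9, 55.9 and 67.2 CPM in moderate wild type cells.

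The difference between the genotypes in their folic acid effect was tested as an interaction. EdgeR called 0 members (0% of all genes), 0 had an unadjusted p under 0.05 (6.68% of all genes), and DESeq2 called 0 (0.0527%). The smallest p belonged to Tmem216, with an interaction of 0.84 (interval -0.06 to 1.74, edgeR adjusted p = 0.708), followed by Ift172 at -0.63 (interval -1.37 to 0.12, edgeR adjusted p = 0.710), Tctn1 at -0.59 and Cep164 at -0.58. Tmem216 had 6.71, 6.93 and 7.06 CPM in fortified mutant cells and 4.50, 4.18 and 4.63 CPM in moderate mutant cells, but in wild type cells its ranges overlapped, with 6.84, 3.42 and 7.46 CPM at moderate folic acid. Ift172 had 45.2, 24.6 and 31.7 CPM in fortified mutant cells, 44.9, 27.95 and 41.7 CPM in fortified wild type cells, 55.7, 59.5 and 51.6 CPM in moderate mutant cells, and 32.5, 42.0 and 47.3 CPM in moderate wild type cells. The moderate mutant libraries were thus its highest. Tctn1, a tectonic of the transition zone, had 16.3, 9.37 and 12.0 CPM in fortified mutant cells, 19.0, 11.4 and 16.2 CPM in fortified wild type cells, 19.7, 19.7 and 14.6 CPM in moderate mutant cells, and 13.6, 15.4 and 15.4 CPM in moderate wild type cells.

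By module, the folic acid medians differed in sign. Averaged over both genotypes, IFT-B had a median log2 fold change of 0.08 (9 of 16 genes positive), IFT-A 0.04 (3 of 6), the motors -0.26 (0 of 3), the BBSome -0.08 (3 of 10), the transition zone -0.15 (4 of 13), and the basal body and GTPases 0.10 (3 of 5). Within IFT-B the core subunits had a median of 0.31 (7 of 10 positive) and the peripheral subunits one of -0.09 (2 of 6 positive), with Ift20 the peripheral member that rose. The motors were negative in both genotypes, with medians of -0.16 in mutant and -0.26 in wild type cells, and Kif3b was the motor that passed. With the length trend described below removed, the motor median in mutant cells was 0.02, and Dync2h1 was at 0.45 in mutant and 0.14 in wild type cells. Kif3a and Kif3b stayed negative in wild type cells (-0.33 and -0.24) and in the average (-0.16 and -0.23). The sign of the motor median thus depends on that trend in mutant cells, and that of Dync2h1 in both genotypes. In the BBSome edgeR called 0 genes, and Bbs4 (-0.58, edgeR adjusted p = 0.0662) was the 1 gene with an unadjusted p under 0.05; DESeq2, limma-voom and both fits on TPM called Bbs4. Bbs9, a BBSome scaffold subunit, had 0.47. In the transition zone B9d1 (0.51, edgeR adjusted p = 0.0701) had the highest value and Cep290 the lowest.

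**Figure D4:**
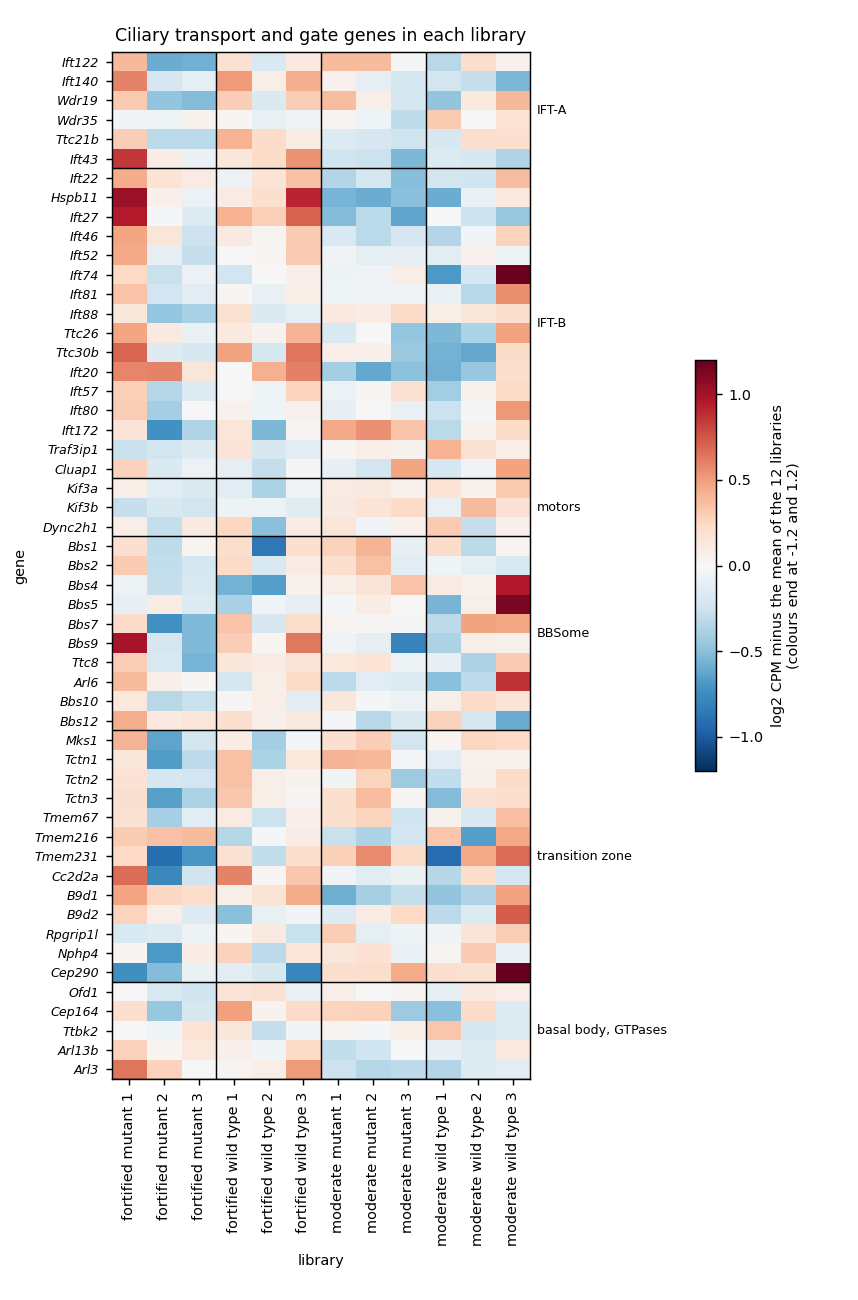
Log2 CPM of each member minus its mean over the 12 libraries, by module (rows) and library (columns); red is above and blue below the mean, with colours ending at -1.2 and 1.2. Fortified mutant 1 and moderate wild type 3 have the highest mean over all members (0.28 and 0.24) and fortified mutant 2 the lowest (-0.22).

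Single libraries moved many members together. The mean of log2 CPM relative to the 12 libraries, taken over all members, was 0.28, -0.22 and -0.15 in fortified mutant 1, 2 and 3, and 0.10, -0.08 and 0.16 in fortified wild type 1, 2 and 3. It was -0.002, 0.005 and -0.11 in moderate mutant 1, 2 and 3, and -0.18, -0.04 and 0.24 in moderate wild type 1, 2 and 3. The fortified mutant and moderate wild type libraries spread widest and overlapped every other group, while the moderate mutant libraries lay close together. For IFT-B this mean was 0.41 in fortified mutant 1, against -0.13 in both other fortified mutant libraries, and 0.29 in moderate wild type 3, against -0.28 and -0.14 in moderate wild type 1 and 2.

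The folic acid fold changes of the members ran against gene length, read from the ratio of the deposited counts to TPM and given relative to the median tested gene. Over the 53 members the correlation of log2 fold change with log2 length was -0.54 (Spearman -0.37) averaged over genotypes, -0.65 in mutant and -0.29 in wild type cells; over all 15186 genes it was -0.23, -0.31 and -0.08. The relation was not particular to folic acid. For mutant over wild type cells the correlation over members was 0.47 at moderate, -0.41 at fortified and 0.11 averaged over folic acid levels. For the interaction it was -0.51. Over all genes these were 0.25, -0.06, 0.11 and -0.23. All are descriptions across genes that share the same 12 libraries. All 5 members that rose had a relative length under 0.4, from 0.15 for Hspb11 to 0.32 for Ift27, and the 2 that fell were long, at 2.05 for Kif3b and 2.95 for Cep290. Each library's slope of log2 CPM on log2 length lay between -0.149 and 0.037 in fortified and between -0.085 and 0.135 in moderate libraries. With each library's length trend removed, 2 members passed, Ift20 (0.48, edgeR adjusted p = 0.0273) and Ift140 (0.59, edgeR adjusted p = 0.0391), and 2017 genes in all. The log2 fold changes then were 0.50 for Ift27, 0.42 for Hspb11, 0.30 for Ift43, 0.23 for Arl3, -0.68 for Cep290 and -0.23 for Kif3b, none passing (edgeR adjusted p from 0.0669 to 0.221).

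**Figure D5:**
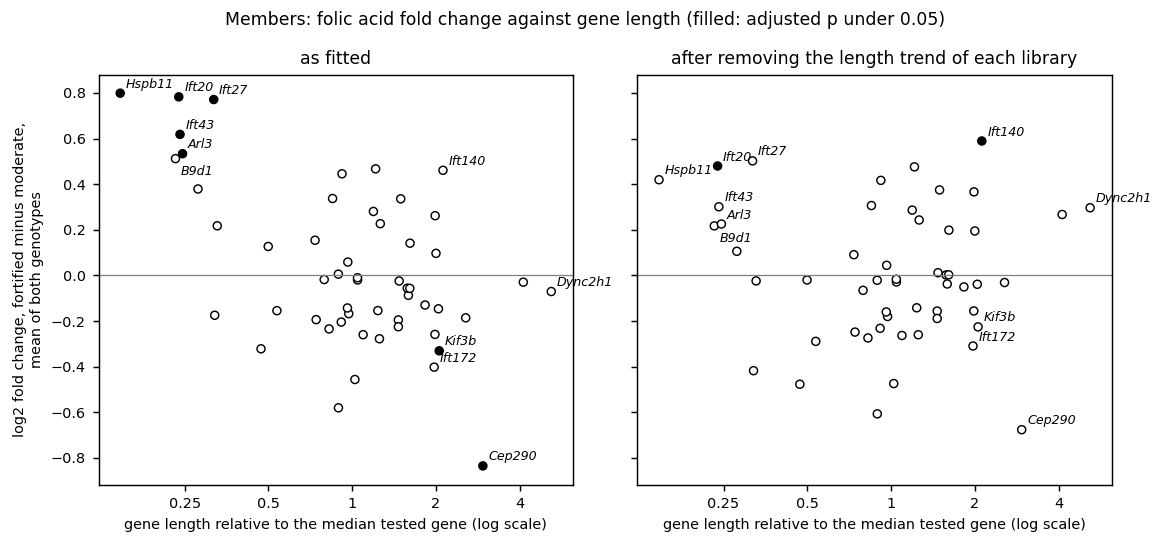
Log2 fold change of fortified over moderate folic acid (mean of both genotypes) of the 53 members against gene length relative to the median tested gene (log axis), as fitted and with each library's length trend removed; filled circles have an adjusted p under 0.05. As fitted, the members that rose lie at the short end; after removal Ift20 (0.48) and Ift140 (0.59) are the filled ones.

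Marker lists of other cell types and of proliferation were measured beside these genes. The 12 fibroblast markers summed to 8709 to 10880 TPM in fortified mutant cells, 13930 to 19860 TPM in fortified wild type cells, 11420 to 12100 TPM in moderate mutant cells, and 6565 to 13130 TPM in moderate wild type cells. In the folic acid average 11 of 12 were positive (median 0.97), and Col1a1, Col3a1, Col1a2, Thy1 and Dcn rose in the edgeR test. The 15 proliferation genes summed to 819 to 1444 TPM in fortified mutant cells, 784 to 976 TPM in fortified wild type cells, 617 to 654 TPM in moderate mutant cells, and 622 to 1464 TPM in moderate wild type cells. In the average 14 of 15 were positive (median 0.70), and Cdk1, Plk1 and Aurkb rose in the edgeR test. The 14 skeletal muscle markers summed to 1328 to 5417 TPM in fortified mutant cells, 798 to 2779 TPM in fortified wild type cells, 2988 to 3857 TPM in moderate mutant cells, and 1757 to 4871 TPM in moderate wild type cells. These sums overlapped, 5 of 14 were positive and edgeR called 0. The 11 blood and macrophage markers were positive in 0 of 11 (median -0.45), with 0 called by edgeR, and summed to 67.7 to 86.5 TPM in fortified mutant cells, 79.5 to 243 TPM in fortified wild type cells, 60.1 to 313 TPM in moderate mutant cells, and 91.1 to 336 TPM in moderate wild type cells. No gene of these 4 lists was at 0 in every library. The part of these cells and of proliferation in the results for the ciliary genes was not tested. Fortified mutant 2, fortified mutant 3 and moderate wild type 1 had the 3 highest muscle sums. They also had the 3 highest sums of neuron markers (375, 286 and 530 TPM), and fortified wild type 1 came next (206 TPM). Of the neuron, cartilage, epithelium and endothelium markers, edgeR called Sox9 and Col11a1 higher in the folic acid average. It called Map2, Sox6, Esrp1 and Kdr lower. The part of these cells was not tested either. Without these 3 libraries all 7 members named above kept their direction in the folic acid average. Fortified mutant cells were then the single library fortified mutant 1, assumed to vary like the others, which had the highest mean over the members.

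How far each call held differed by gene. Over 24 alternative analyses all 7 called members kept their direction in 24 of 24. Ift20 stayed called in 23, Cep290 in 20, Arl3 in 18, Ift27 in 15, Ift43 in 14, Hspb11 in 13 and Kif3b in 11. Ift20 held without any single library. Cep290 missed the threshold without moderate mutant 3 (adjusted p = 0.0543) or fortified wild type 3 (0.0538), and Arl3 without moderate mutant 2 (0.0525) or fortified wild type 3 (0.0533). Ift27 and Ift43 missed it without any one of the moderate mutant libraries, moderate wild type 3 or fortified wild type 3 (edgeR adjusted p 0.0510 to 0.0686 for Ift27 and 0.0501 to 0.0730 for Ift43). Hspb11 missed it without any one of the moderate mutant libraries, moderate wild type 2, fortified mutant 1 or fortified wild type 3 (0.0573 to 0.0943). Kif3b missed it without any single library except moderate wild type 1 and moderate wild type 3 (0.0521 to 0.0832). Without fortified wild type 3, Ift20 was thus the 1 member called, and among the libraries with Xist, which leave 1 wild type library per diet, 0 members and 0 genes were called. On log2(TPM + 1), where the median of all genes shifted by -0.15, 8 of 53 members and 3741 of 15186 genes passed in the folic acid average. The members were Ift20, the 1 higher, and 7 lower (Bbs4, Cep290, Ift172, Ift88, Kif3a, Kif3b and Traf3ip1), against 5 higher and 2 lower by scaled counts. All genes called were 588 higher and 3153 lower, against 1351 and 1345 by scaled counts, so the members shifted with all genes.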

How the data were processed

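RNA was isolated with trizol and chloroform and libraries were made with the Tecan Universal Plus mRNA-Seq kit, per the labels' protocols. The authors deposited expected counts and TPM per gene, made with salmon according to the names of the deposited tables, and the genome build was mm10 per the submitters' processing notes; neither the salmon version nor the annotation is given in these sources. Column names carry unexplained letters, so the diet of a column rests on the column number given in the sample descriptions. Expected counts were rounded to whole numbers. The filter was filterByExpr with a minimum count of 10 and a minimum total of 15, and the genes left were tested in 1 fit of the 4 groups with edgeR 4.0.16 (quasi-likelihood, TMM scaling, R 4.3.3), with Benjamini-Hochberg adjusted p under 0.05 over all 15186 genes as the threshold. The 53 members and all gene lists were chosen with earlier results of these data known. Named members were those past the threshold, the 4 with the smallest p in each of the comparisons, those whose groups did not overlap (named in full where few) and the highest and lowest TPM of each module; Bbs9 and Dync2h1 were given besides.

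Gene length was the median over libraries of deposited count divided by TPM, in units of the median tested gene; each length trend was a natural spline (5 degrees of freedom) of log2 CPM (prior count 2). Libraries with at least 1000 Xist counts were taken to carry Xist. Alternatives were DESeq2 1.42.0, limma 3.58.1 (voom, and log2 of TPM plus 1 or 0.1), other scalings and filters, a replicate block, leaving out libraries, and removal of the length trend. No 2 libraries were duplicates by a chi-square check. Of 18 pairs of libraries with the same number, 4 had a correlation of their deviations above 0.1 (lowest -0.477, highest 0.244). With 3 libraries per group this cannot show whether numbers pair them, and the main fit did not pair them. The procedure was tested on simulated data. No value column was left unmapped. Some items are not reported here.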

Additional observations from a re-analysis of the deposited data

How the results depend on the processing

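The alternatives were compared for 31 results of named members, each a gene in a comparison, and not for all 53 members. Direction and side of the threshold were kept in 675 alternative results. Most of the 31 were not called in the main fit, so for those the same side means staying uncalled. Results were weaker in 63, stronger in 20 and reversed in 2. B9d1 reversed in mutant against wild type cells at moderate folic acid (0.0728 with Xist libraries only, against -0.37). Ttc21b reversed at fortified folic acid (0.0335 without fortified mutant 2, fortified mutant 3 and moderate wild type 1, against -0.34). The cause was not tested.

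DESeq2 called 50 genes between mutant and wild type at moderate folic acid, 6 at fortified, 18 for the genotype average and 8 for the interaction, where edgeR called 0. For folic acid it called 2414 genes and 9 members in mutant cells (edgeR 1053 and 1) and 1197 genes and 2 members in wild type cells (edgeR 4 and 0). In the average it called 3942 genes and 12 members (edgeR 2696 and 7). Limma-voom with quality weights called 5273 genes and 20 members in mutant cells, 17 genes in wild type cells, and 3835 genes and 12 members in the average.

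On log2(TPM + 1), mutant cells had 2819 genes and 5 members called with a member median of -0.322, wild type cells 1 gene, and the member medians were -0.230 for the folic acid average and -0.166 for the interaction. On log2(TPM + 0.1), mutant cells had 2814 genes, 5 members and a median of -0.373, wild type cells 14 genes, and the medians were -0.249 for the average, -0.202 for the interaction and 0.106 for mutant against wild type at moderate folic acid. The split of genes called in the folic acid average was 588 higher and 3153 lower on log2(TPM + 1), 593 and 3147 on log2(TPM + 0.1), and 988 and 1896 by library totals, against 1351 and 1345 with TMM; all-gene medians shifted by -0.150, -0.198 and -0.0653. In mutant cells it was 308 and 2511, 313 and 2501, and 543 and 641, against 637 and 416.

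Library totals gave 1184 genes and 2 members in mutant cells and 2 genes in wild type cells. Wild type cells had 80 genes with no low-count filter and 39 with a filter of 1 CPM in 3 libraries. With the replicate block, mutant cells had 559 genes and 0 members (Ift20 at edgeR adjusted p = 0.0544) and wild type cells 65 genes. The average had 2309 genes and 6 members. Whether the libraries of a block share more than a number is not known. Fitting only the groups compared gave 2122 genes and 4 members in mutant and 0 genes in wild type cells.

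Without those 3 libraries fortified mutant cells are 1 library, fortified mutant 1, taken to vary like the others. Mutant cells then had 4 members (median 0.179), wild type cells 1298 genes and 3 members, and the medians were 0.227 for mutant against wild type at fortified folic acid and 0.309 for the interaction. Libraries with Xist only gave 2045 genes and 4 members in mutant cells, 0 genes and a median of 0.290 in wild type cells, 0 genes and 0 members in the average, and medians of 0.124 for mutant against wild type at moderate folic acid and -0.280 for the interaction. With the length trend removed there were 85 genes and 0 members in mutant cells, 60 genes in wild type cells and 2 members in the average.

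Leaving out 1 library at a time gave 1411 to 4025 genes and 1 to 8 members in the folic acid average, 0 to 2073 genes and 0 to 3 members in mutant cells, and 1 to 1012 genes and 0 to 1 members in wild type cells. The 0 genes in mutant cells came without moderate mutant 1 or 2, and the highest counts without moderate wild type 1. The lowest count of a member was 88, and what limited the number of calls was not tested. Of the module medians over all alternatives, 22 moved beyond the spread between libraries for the motors and 150 did not. For the basal body and GTPases 22 moved and 150 did not, and for IFT-B 15 moved and 157 did not. For the BBSome 14 moved and 158 did not. For IFT-A and for the transition zone 13 moved and 159 did not in each.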

Other observations

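Other genes of the cilium that were not on the list were 75 tested of 82 named. In the folic acid average edgeR called 7 of them higher and 4 lower (17.8% of all genes were called). In mutant cells it called 2 higher and 0 lower (6.93% of all genes). Neither share was above that of all genes. Values of these genes with the length trend removed are not given here. Dynlt1b, a light chain of dynein, had 183, 204 and 164 CPM in fortified mutant cells, 147, 182 and 194 CPM in fortified wild type cells, 66.0, 56.8 and 50.8 CPM in moderate mutant cells, and 104, 69.8 and 83.0 CPM in moderate wild type cells. Every fortified library was above every moderate one, and the log2 fold change was 1.34 (SE 0.13, edgeR adjusted p = 0.00113). Tmem107, of the transition zone, rose by 0.92 (edgeR adjusted p = 0.0288), and Kifap3, the accessory subunit of kinesin-2, rose by 0.46 (edgeR adjusted p = 0.0342) while Kif3b fell. The BBSome subunit Bbip1 (0.49), the lipid-binding carrier Pde6d (0.59) and the Hedgehog regulator Evc (0.55) also rose.

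Ccp110 and Cep97, which cap the mother centriole and hold back ciliogenesis, fell by 0.54 and 0.55 on the log2 scale (edgeR adjusted p = 0.0343 and 0.0400), and Trim32 fell by 0.37. Of the 8 ciliary transcription factors tested, 5 were positive in the folic acid average (median log2 fold change 0.16), and edgeR called 1, lower. That gene was Rfx7, of the RFX family, which fell by 0.55 (edgeR adjusted p = 0.023). It had 44.3, 67.4 and 77.7 CPM in fortified mutant cells, 67.4, 58.6 and 53.4 CPM in fortified wild type cells, 94.1, 95.4 and 91.3 CPM in moderate mutant cells, and 87.3, 71.4 and 102 CPM in moderate wild type cells. Of the 7 CPLANE genes listed 5 were tested and 0 were called in any comparison.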
